A study of Homo sapiens with 6 samples.

Results

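The 9 genes described here are renal lineage factors and tubule markers, chosen by their symbols from the 58735 rows of the count table. They are the paired-box transcription factors PAX8 and PAX2, the endocytic receptors LRP2 and CUBN, the brush border ectoenzymes ANPEP, MME and GGT1, the membrane carbonic anhydrase CA12 and the water channel AQP1. These genes were chosen with earlier results of these data known. RNA came from ACHN cells, an established human renal cancer cell line, that received either a small interfering RNA (siRNA) targeting OTUD1, a gene for a deubiquitinase, or a control siRNA. Each group held 3 libraries, and all 6 came from this single line. The labels give 1 siRNA against OTUD1 (si01) and no dose or time, and nothing in them tells whether replicates were separate cultures. The p-values therefore reflect only how far replicate libraries differ, possibly for technical reasons.

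PAX2 and PAX8 are needed early in the kidney to commit cells to the nephron lineage, and both stay on in many renal tumours, where PAX8 is used as a marker of renal origin. Mature proximal tubule cells carry a brush border with megalin (LRP2) and cubilin (CUBN), which take filtered proteins back up from the urine, together with peptidases and glutathione-degrading enzymes on the membrane surface and the water channel AQP1. These mature markers are often reduced or lost in cultured tubule and tumour cells.

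Total counts per library were 17243433 to 21013530 after OTUD1 siRNA and 16753495 to 18993534 after control siRNA, and 15244 genes passed the filter on low counts. OTUD1 itself had 28, 17 and 25 counts in the OTUD1 siRNA libraries, against 61, 67 and 65 in the control libraries. It was 3.22-fold lower (log2 fold change -1.69, SE 0.235, edgeR quasi-likelihood adjusted p = 4.37e-07). Over all genes tested, 60.4% were called at an adjusted p under 0.05. Genes called higher made up 29.3% of all genes tested and genes called lower 31.1%, so a call was the common outcome. With TMM scaling 48.4% of the calls were higher, and with library totals 64.2% were. Levels are given in CPM, the count relative to the TMM-scaled library size, and 3 counts correspond to 0.137 to 0.188 CPM in these libraries. A positive log2 fold change means a higher level after OTUD1 siRNA. In bulk RNA, fewer cells of a kind and less RNA per cell cannot be told apart.

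PAX8, PAX2 and GGT1 were well expressed, CA12, MME and ANPEP were low, CUBN and AQP1 had a few counts, and LRP2 had none. PAX8, PAX2 and CA12 fell after OTUD1 siRNA, GGT1 and MME rose, ANPEP was tested and not called, while CUBN, AQP1 and LRP2 did not pass the filter. Thus, of the 6 genes tested, 3 were lower and 2 higher, beside 31.1% and 29.3% of all genes tested. In 5 of these 6 genes the libraries of the groups did not overlap, as was the case for 64.5% of all genes tested. The median size of a change was 0.72 on the log2 scale for the 6 tested members, with the uncalled ANPEP and the low-count MME among them. It was 0.32 for all genes tested and 0.47 for all called genes. The members were chosen with earlier results of these data known, so these medians do not compare an unselected set with all genes.

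**Figure D1:**
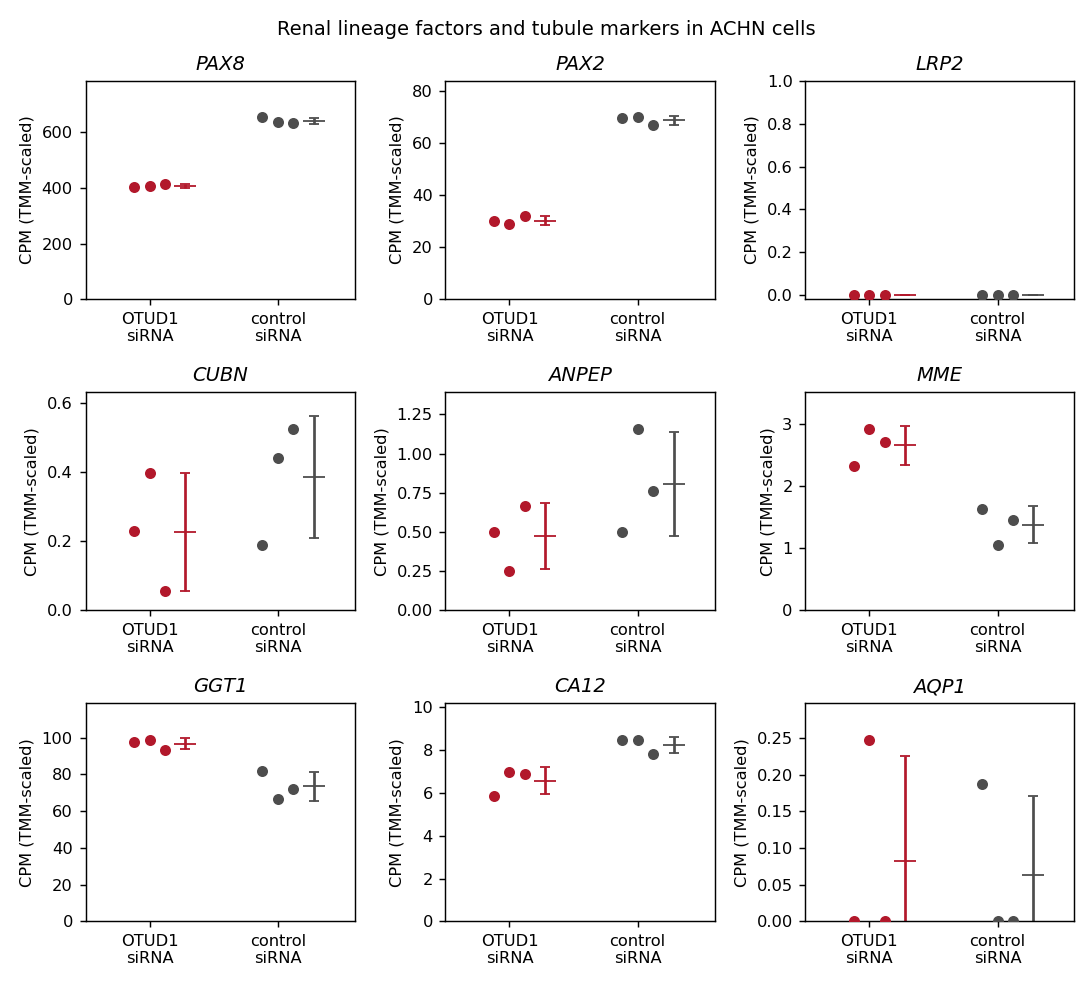
TMM-scaled CPM of each of the 9 genes by library, on linear axes that differ between panels. Points are the 3 libraries of each group, and the bar beside them is the mean with its SD. PAX8, PAX2 and CA12 sit lower after OTUD1 siRNA and MME and GGT1 higher, without overlap, and LRP2 is at 0 in all 6 libraries.

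Levels can be compared between genes after division by the length of annotated exon. In the control libraries PAX8 led with 86.8 ± 1.42 CPM per kb (SD, n = 3, as for the values that follow), which was above 96.7% of the 15170 tested genes with an unambiguous length. GGT1 followed at 16.6 ± 1.76 CPM per kb and PAX2 at 11 ± 0.277 CPM per kb, then CA12 at 1.13 ± 0.0506 CPM per kb. ANPEP at 0.165 ± 0.0678 and MME at 0.143 ± 0.0311 CPM per kb did not differ beyond their spread, nor did CUBN at 0.029 ± 0.0132 and AQP1 at 0.0182 ± 0.0316 CPM per kb. LRP2 came last, with no count. After OTUD1 siRNA the order was PAX8 (55.2 ± 0.916), GGT1 (21.8 ± 0.651), PAX2 (4.83 ± 0.253), CA12 (0.897 ± 0.0857), MME (0.276 ± 0.0319) and ANPEP (0.0969 ± 0.0433 CPM per kb), with AQP1 and CUBN again within each other's spread. The renal lineage factors and GGT1 were thus clearly present. The other markers of the mature proximal tubule were low (MME and ANPEP), near 0 (CUBN and AQP1) or at 0 (LRP2).

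PAX8 (ENSG00000125618.16, chr2:113215997-113278950 of hg38, minus strand) encodes the paired-box factor of the nephron and thyroid lineages. It had 402, 408 and 416 CPM in the OTUD1 siRNA libraries, against 654, 638 and 634 CPM in the control libraries. All OTUD1 siRNA libraries lay well below all control libraries, and each group was tight. The fall was 1.57-fold (log2 fold change -0.65, SE 0.029, edgeR adjusted p = 1.37e-17). Among all called genes, 66.9% changed by less than PAX8 did. Its log2 fold change was -0.44 after quantile normalization, the smallest fall of any setting tried.

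PAX2 (ENSG00000075891.21, chr10:100735603-100829941, plus strand), the close relative that acts with PAX8 in kidney formation, had 29.9, 28.7 and 31.8 CPM in the OTUD1 siRNA libraries, against 69.5, 69.7 and 66.6 CPM in the control libraries. The groups were far apart. PAX2 fell 2.28-fold (-1.19 on the log2 scale with an SE of 0.0565, edgeR adjusted p = 7.26e-17), and only 2.03% of tested genes had a lower log2 fold change. Because PAX2 fell further than PAX8, the ratio of PAX8 to PAX2 per kb was 11.3, 12 and 11 in the OTUD1 siRNA libraries, against 7.94, 7.73 and 8.04 in the control libraries. The ratio was higher in 3 of 3 libraries, by 0.53 on the log2 scale (two-sided exact permutation test, p = 0.1, the smallest that 3 libraries against 3 can give).

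The promoters of both genes are shown because the pair fell together. Sequences are from RefSeq (GRCh38.p14), run from 250 bases before to 50 bases after an annotated start, and are on the strand of the gene. All 9 members matched the RefSeq promoter table. PAX8 has 1 start there (chr2:113278872-113279171, minus strand) and PAX2 has 2 (chr10:100735146-100735445 and chr10:100745332-100745631, plus strand). Capitals mark the CCAAT box.

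PAX8: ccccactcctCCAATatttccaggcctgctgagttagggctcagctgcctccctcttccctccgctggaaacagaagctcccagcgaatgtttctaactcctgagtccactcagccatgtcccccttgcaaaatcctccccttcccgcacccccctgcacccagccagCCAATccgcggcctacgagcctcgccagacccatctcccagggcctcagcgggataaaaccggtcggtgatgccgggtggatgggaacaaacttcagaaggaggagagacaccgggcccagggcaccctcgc

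PAX2, upstream start: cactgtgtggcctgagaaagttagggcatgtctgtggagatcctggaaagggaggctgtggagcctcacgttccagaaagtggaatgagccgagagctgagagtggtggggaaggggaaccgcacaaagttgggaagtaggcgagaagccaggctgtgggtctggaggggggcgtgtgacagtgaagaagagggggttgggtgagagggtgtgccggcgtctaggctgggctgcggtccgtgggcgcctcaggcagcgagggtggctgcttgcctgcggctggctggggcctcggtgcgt

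PAX2, downstream start: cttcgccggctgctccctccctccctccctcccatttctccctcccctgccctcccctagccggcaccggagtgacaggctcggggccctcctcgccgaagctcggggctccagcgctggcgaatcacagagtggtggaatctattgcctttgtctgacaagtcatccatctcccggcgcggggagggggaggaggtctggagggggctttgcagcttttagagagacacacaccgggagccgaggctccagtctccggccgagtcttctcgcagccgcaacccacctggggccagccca

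The windows were searched on both strands for the CCAAT box (CCAAT), the TATA box (TATAAA), an AP-1 site (TGANTCA) and the core of the HNF1 site (GTTAAT), none of which contains another. The PAX8 window holds CCAAT with first bases at -240 and -82 from the start, a motif found in 34.6% of the 35116 promoter windows of RefSeq. The PAX2 windows hold none of the 4 motifs, and their GC content is 63.7% and 66.7%, beside 62% for PAX8. Elsewhere among the members, the downstream start of ANPEP has the HNF1 core at -77 (6.88% of all windows have it), AQP1 a TATA box at -30 (11.5% of windows), and 1 of the 4 MME windows a CCAAT box at -62 on the opposite strand. These matches describe letters only.

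The 7-mer CAAACAA was also looked for in the 3′ UTRs of the members, because earlier work on these data had drawn attention to it. It occurs in 14% of the 12471 tested genes with a searched 3′ UTR, and in 21.1% of the 1561 with a 3′ UTR of 2000 to 3000 bases. PAX8 has 1 copy in its 3′ UTR of 2536 bases (GENCODE 29). The stretch around it, chr2:113216430-113216458 on the minus strand, is shown with the 7-mer in capitals.

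PAX8, 3′ UTR: gggcagctggaCAAACAAcactgggattg

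PAX2, with a 3′ UTR of 2322 bases and the larger fall, has no copy, nor has any of the other 7 members. Whether this stretch plays a part in the fall of PAX8 was not tested.

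An RNA annotated on the opposite strand, PAX8-AS1, overlaps the PAX8 gene over 60585 bases. It had 46.7, 49.6 and 48.4 CPM in the OTUD1 siRNA libraries, against 43.2, 47.7 and 41 CPM in the control libraries, and the groups overlapped (log2 fold change 0.13, SE 0.0597, edgeR adjusted p = 0.0602). PAX8-AS1 passed the threshold in 6 of the 14 alternatives, among them the fit without control replicate 2 (0.2 on the log2 scale, adjusted p = 0.00736). Over the alternatives its adjusted p ran from 0.000414 to 0.29. The library kit keeps strand, but no source used here gives the strand setting of the counting, so reads of PAX8 and PAX8-AS1 may be shared in part. The ratio of PAX8 to PAX8-AS1 per kb was 20.1, 19.2 and 20 in the OTUD1 siRNA libraries, against 35.3, 31.2 and 36.1 in the control libraries (two-sided exact permutation test, p = 0.1, the smallest possible here).

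Other transcription factors of the nephron lineage mostly fell with the PAX genes. Of 19 on the list, 12 had enough counts, and 8 of these were lower, 3 higher and 1, SIX2, not called, beside 31.1% of all genes tested that were lower and 29.3% that were higher. Their median log2 fold change was -0.51, against 0.006 for all genes tested. The list was chosen with earlier results of these data known. The number lower was 6 with library totals, and 6 of 10 tested with a minimum mean of 5 CPM. It was 7 with DESeq2 and with any 1 replicate left out. After quantile normalization, with limma-voom and with the replicate block it was 9. The transcription factor TFAP2A fell 1.42-fold, with 30, 32.9 and 30.5 CPM in the OTUD1 siRNA libraries, against 44.9, 46 and 41.9 CPM in the control libraries. POU3F3 fell 1.57-fold, with 14.6, 13.2 and 14.1 CPM in the OTUD1 siRNA libraries, against 22.1, 23.8 and 19.9 CPM in the control libraries. For both genes the groups did not overlap.

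LHX1, an early factor of the nephron, picked out after its values were seen, was 3.13-fold lower from 38 counts over the OTUD1 siRNA libraries and 102 over the control libraries. The 3 genes that rose were OSR1 (1.52-fold), TFCP2L1 (1.45-fold) and MECOM (1.2-fold), named after their values were seen. For MECOM, the fit without OTUD1 siRNA replicate 1 gave 0.18 on the log2 scale and no call (adjusted p = 0.117). SIX2 (log2 fold change -1.05, edgeR adjusted p = 0.0646) passed the threshold in 5 of the 13 alternatives that tested it. Among these were the fits without OTUD1 siRNA replicate 2 (adjusted p = 0.0063) and without control replicate 3 (0.0429).

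**Figure D2:**
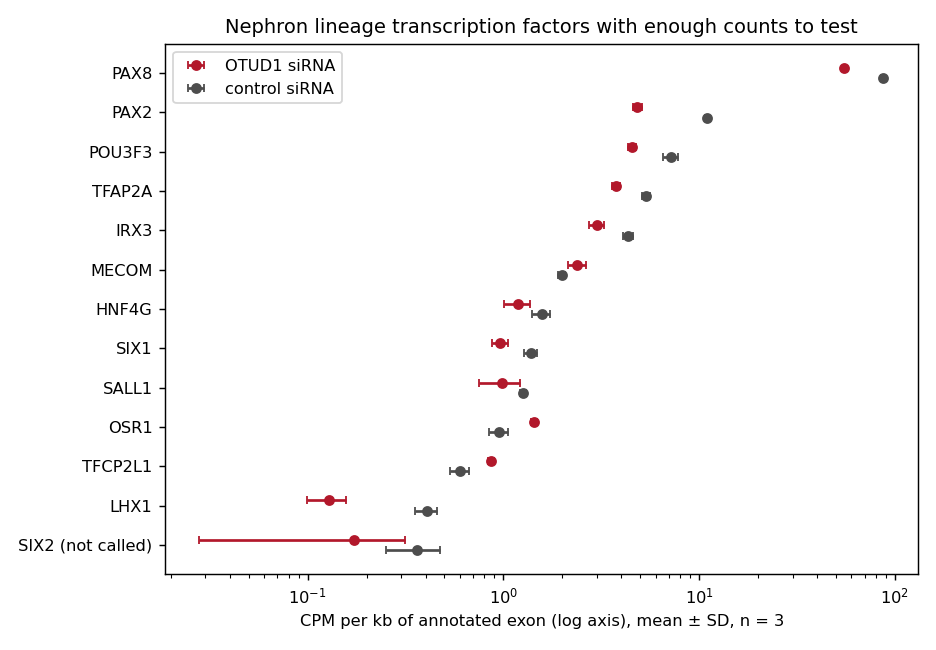
Mean CPM per kb of annotated exon, on a log axis, of PAX8, PAX2 and 11 of the 12 other nephron lineage factors with enough counts, ordered by their control level. Bars are the SD of 3 libraries. PAX8 is the highest of the genes shown in both groups, and the points after OTUD1 siRNA lie left of the control points for PAX8, PAX2, POU3F3, TFAP2A and LHX1. For OSR1, TFCP2L1 and MECOM they lie right of the control points.

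Of the 7 other PAX genes, PAX1, PAX3 and PAX7 had no count and PAX6 alone was tested. PAX6, best known from eye and pancreas, had 11.7, 9.23 and 10.8 CPM in the OTUD1 siRNA libraries, against 12.5, 12.3 and 13.2 CPM in the control libraries. It was called lower (log2 fold change -0.26, SE 0.106, edgeR adjusted p = 0.0376), but not in 7 of the 14 alternatives. These included the fits without OTUD1 siRNA replicate 2 (adjusted p = 0.207) or 3 (0.0571) and without control replicate 1 (0.0502) or 3 (0.118). Among 98 tested genes of the lists described here, those whose profile over the 6 libraries was nearest to that of PAX8 were LRP5, CD24 and LNPEP. Their root-mean-square differences from PAX8 in centred log2 CPM were 0.0439, 0.0472 and 0.0814. The log2 fold changes of these 3 genes were -0.72, -0.64 and -0.59, near the -0.65 of PAX8. With 2 groups, such nearness reflects mostly the size of the change, and shared regulation was not tested.

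The endocytic receptors of the proximal tubule were silent or close to it. LRP2 (ENSG00000081479.13, chr2:169127109-169362685, minus strand), which encodes megalin, had 0 counts in all 6 libraries. Over a group, a count of 0 allows up to 0.0499 CPM after OTUD1 siRNA and 0.0585 CPM after control siRNA. CUBN (ENSG00000107611.15, chr10:16823966-17129817, minus strand), which encodes cubilin, had 5, 8 and 1 counts in the OTUD1 siRNA libraries, against 3, 8 and 9 in the control libraries. The ratio of its summed counts was 0.597 with a 95% exact counting interval of 0.279 to 1.24, so no difference was detectable at this depth.

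Several partners of these receptors were expressed all the same. All 7 of the listed endocytic partners were tested, and 5 were higher and 2 lower, beside 29.3% and 31.1% of all genes tested. Their median log2 fold change was 0.14. AMN, whose product amnionless carries cubilin to the membrane, had 5.42, 5.01 and 5.39 CPM in the OTUD1 siRNA libraries, against 3.32, 3.25 and 3.62 CPM in the control libraries. It rose 1.55-fold (edgeR adjusted p = 0.00109), and was singled out after its values were seen. OCRL, a lipid phosphatase of endosomes, rose 1.15-fold. The adaptor DAB2, which links cargo receptors to the clathrin coat, fell 1.41-fold.

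LRP2 belongs to the LDL receptor family, whose 12 other listed genes were all tested, with a median log2 fold change of -0.03. Of the 12, 4 were higher and 6 lower, beside 29.3% and 31.1% of all genes tested. LRP8, a receptor for reelin, fell 2.65-fold, LRP4 fell 1.94-fold and the Wnt co-receptor LRP5 fell 1.65-fold. LRP1B was 4.06-fold higher, on 68 counts over the OTUD1 siRNA libraries and 14 over the control libraries. LRP10 rose 1.2-fold and LRP3 rose 1.33-fold. LRP12 fell 1.28-fold, and LRP1 and VLDLR fell 1.2-fold and 1.15-fold, both without a call under library totals (adjusted p = 0.0959 and 0.345). VLDLR also lost its call without control replicate 2 (adjusted p = 0.0617).

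Among the brush border ectoenzymes, GGT1 and MME rose while ANPEP stayed uncalled. GGT1 (ENSG00000100031.18, chr22:24583750-24629005, plus strand) encodes gamma-glutamyltransferase, which breaks down glutathione outside the cell. It had 97.7, 98.9 and 93.4 CPM in the OTUD1 siRNA libraries, against 81.8, 66.4 and 72.2 CPM in the control libraries. Every OTUD1 siRNA library lay above every control library, although control replicate 1 came closer than the other two. GGT1 rose 1.32-fold (log2 fold change 0.4, SE 0.0544, edgeR adjusted p = 2.8e-07), a change larger than 41.7% of all called changes.

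GGT1 has near-identical copies and crowded surroundings, and its counts are uncertain to that extent. Of its 8 listed relatives, GGT3P, GGTLC1 and GGTLC3 had no count, GGT2 had 1 in all, and GGT7, a more distant one, was the 1 tested. GGT7 was 1.13-fold higher (edgeR adjusted p = 0.0363), a call lost in 6 of the 14 alternatives. The call was lost without OTUD1 siRNA replicates 2 or 3 and without control replicates 2 or 3 (adjusted p 0.0564 to 0.179). DESeq2 and the fit with no filter on low counts did not give it either. LRRC75B, on the opposite strand over 7589 bases of GGT1, had 17.2, 16.3 and 18.2 CPM in the OTUD1 siRNA libraries, against 13.3, 11.7 and 11.1 CPM in the control libraries. It rose 1.43-fold (edgeR adjusted p = 3.11e-05). SNRPD3, on the same strand over 26231 bases, was not called (-0.06 on the log2 scale, edgeR adjusted p = 0.201). Whether reads of these neighbours entered the GGT1 count was not tested.

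MME (ENSG00000196549.10, chr3:155024124-155183729, plus strand) encodes neprilysin (CD10), a peptidase of the brush border and a usual marker of clear cell renal tumours. It had 51, 59 and 49 counts in the OTUD1 siRNA libraries, against 26, 19 and 25 in the control libraries, or 2.32, 2.93 and 2.72 CPM against 1.63, 1.05 and 1.46 CPM. The groups did not overlap. MME rose 1.93-fold (0.95 on the log2 scale with an SE of 0.252, edgeR adjusted p = 0.00183), and its adjusted p over the alternatives ran from 0.000482 to 0.0155. The gene stayed at the low end in both groups, since only 3.45% of tested genes had a lower control level per kb. MME-AS1, on the opposite strand, had 1 count in all 6 libraries.

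ANPEP (ENSG00000166825.13, chr15:89784889-89815401, minus strand), which encodes aminopeptidase N (CD13), had 11, 5 and 12 counts in the OTUD1 siRNA libraries, against 8, 21 and 13 in the control libraries. The groups overlapped. It was not called (-0.79 on the log2 scale with an SE of 0.444, edgeR adjusted p = 0.125). The ratio of summed counts was 0.569, with a counting interval of 0.34 to 0.94. Across settings the log2 fold change ran from -1.09 to -0.43. Quantile normalization with limma-trend gave an adjusted p of 0.0442.

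Of 9 other ecto-peptidases, 5 were tested, with a median log2 fold change of -0.07. Of the 5, 2 were higher and 1 lower, beside 29.3% and 31.1% of all genes tested. ENPEP, the brush border aminopeptidase A that cleaves angiotensin II, rose 1.51-fold with 7.57, 8.09 and 7.17 CPM in the OTUD1 siRNA libraries, against 4.32, 5.07 and 5.66 CPM in the control libraries. ECE1, which processes endothelin, rose 1.14-fold, and LNPEP, an aminopeptidase of insulin-regulated vesicles, fell 1.5-fold. Of 9 structural brush border genes, 4 were tested and 2 were lower, beside 31.1% of all genes tested. The membrane linker EZR fell 1.38-fold and its partner SLC9A3R1 1.18-fold (with library totals SLC9A3R1 was not called, adjusted p = 0.0545), while MYO1A had no count.

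CA12 (ENSG00000074410.13, chr15:63321378-63382161, minus strand), a carbonic anhydrase whose active site faces outward, had 5.83, 6.95 and 6.89 CPM in the OTUD1 siRNA libraries, against 8.45, 8.48 and 7.82 CPM in the control libraries. The groups did not overlap, but the gap was small. CA12 fell 1.26-fold, by the call of edgeR (-0.34 on the log2 scale with an SE of 0.125, adjusted p = 0.0221). That call was lost without OTUD1 siRNA replicate 1 (log2 fold change -0.25, adjusted p = 0.124) and without control replicate 2 (-0.31, 0.0589). It was also lost with library totals (-0.21, 0.153) and with DESeq2 (-0.33, 0.0684).

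Of the 14 other carbonic anhydrases, 6 were tested, 1 of them higher and 2 lower, beside 29.3% and 31.1% of all genes tested. The median over the 6 was -0.36 on the log2 scale. The cytosolic enzymes CA13 and CA2 fell 1.78-fold and 1.32-fold, and CA11, a relative without enzyme activity, rose 2.1-fold. CA9, the hypoxia-induced enzyme that marks clear cell renal carcinoma, had 0 counts over the OTUD1 siRNA libraries and 1 over the control libraries.

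AQP1 (ENSG00000240583.11, chr7:30911694-30925516, plus strand), the water channel of the proximal tubule and descending limb, had 0, 5 and 0 counts in the OTUD1 siRNA libraries, against 3, 0 and 0 in the control libraries. The ratio of 1.42 has a counting interval of 0.277 to 9.16, and no difference was detectable. Of the 10 other aquaporins, 5 had no count and 2 were tested. Neither AQP3 (log2 fold change 0.75, edgeR adjusted p = 0.0883) nor AQP11 (-0.25, adjusted p = 0.33) was called, though AQP3 passed with library totals (0.88, adjusted p = 0.0443).

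**Figure D3:**
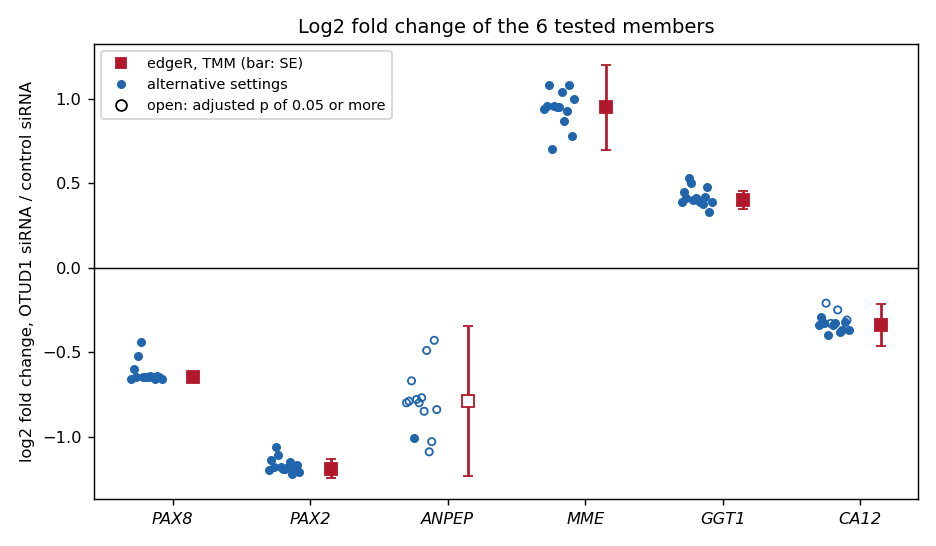
Log2 fold change, OTUD1 siRNA over control siRNA, of the 6 members with enough counts. Squares are the edgeR fit with TMM scaling and bars its SE, circles are the alternative settings, and open symbols have an adjusted p of 0.05 or more. PAX8, PAX2, MME and GGT1 keep their direction and call at each setting that tested them, CA12 loses its call at 4 settings, and ANPEP gains one at 1.

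Other genes of the proximal tubule moved both ways. Of 32 transporters and enzymes, 9 had no count, among them the organic anion transporters SLC22A6 and SLC22A8, and 16 were tested. Of these, 5 were higher, 6 lower and 5 not called, beside 29.3% of all genes tested that were higher and 31.1% that were lower. Their median log2 fold change was 0.05. The extruder of organic cations SLC47A1 fell 2.5-fold, with 16, 15.7 and 15.2 CPM in the OTUD1 siRNA libraries, against 37.1, 39.5 and 40.8 CPM in the control libraries. SLC17A3 fell 1.82-fold and the bicarbonate cotransporter SLC4A4 2.03-fold. GATM, an enzyme of creatine synthesis named after its values were seen, rose 1.68-fold. The number higher was 3 without OTUD1 siRNA replicate 1, without control replicate 2 or without control replicate 3, and it was 1 after quantile normalization. With DESeq2 it was also 3, and with a minimum mean of 5 CPM it was 2 of 8 tested. With library totals 6 were higher and 3 lower.

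On the list of general epithelial markers, KRT8, KRT18, KRT19 and EPCAM were well expressed. CDH1 (1.29 CPM after OTUD1 siRNA, 1.79 CPM after control siRNA) and MUC1 (3.58 and 2.03 CPM) were low. KRT8 and KRT18, the paired keratins of simple epithelia, fell 2.1-fold and 2.21-fold, and KRT19 rose 1.33-fold. Of the 6 genes on that list, all tested, 3 were higher and 2 lower, beside 29.3% and 31.1% of all genes tested. Leukocyte and endothelial markers were scarce, while the fibroblast and mural cell list held 1 abundant gene, THY1. The leukocyte genes PTPRC, CD3E, LYZ and MS4A1 had no count, and the 7 genes of that list summed to 3.43 to 4.06 CPM after OTUD1 siRNA and 3.3 to 5.31 CPM after control siRNA. The 5 endothelial genes summed to 0.596 to 0.912 CPM after OTUD1 siRNA and 0.188 to 0.934 CPM after control siRNA, with KDR at 0. The 7 fibroblast and mural cell genes summed to 143 to 153 CPM after OTUD1 siRNA and 284 to 295 CPM after control siRNA, of which THY1 made up 131 to 139 CPM and 276 to 286 CPM. COL1A2 had 1 count in all. Of the 3 genes of that list that were tested, THY1 fell 2.1-fold, PDGFRB rose 1.74-fold and COL1A1 was not called (log2 fold change 0.37, edgeR adjusted p = 0.0678). Without control replicate 1 or 3 the number higher was 2. The part of these genes in the results for the renal genes was not tested.

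**Figure D4:**
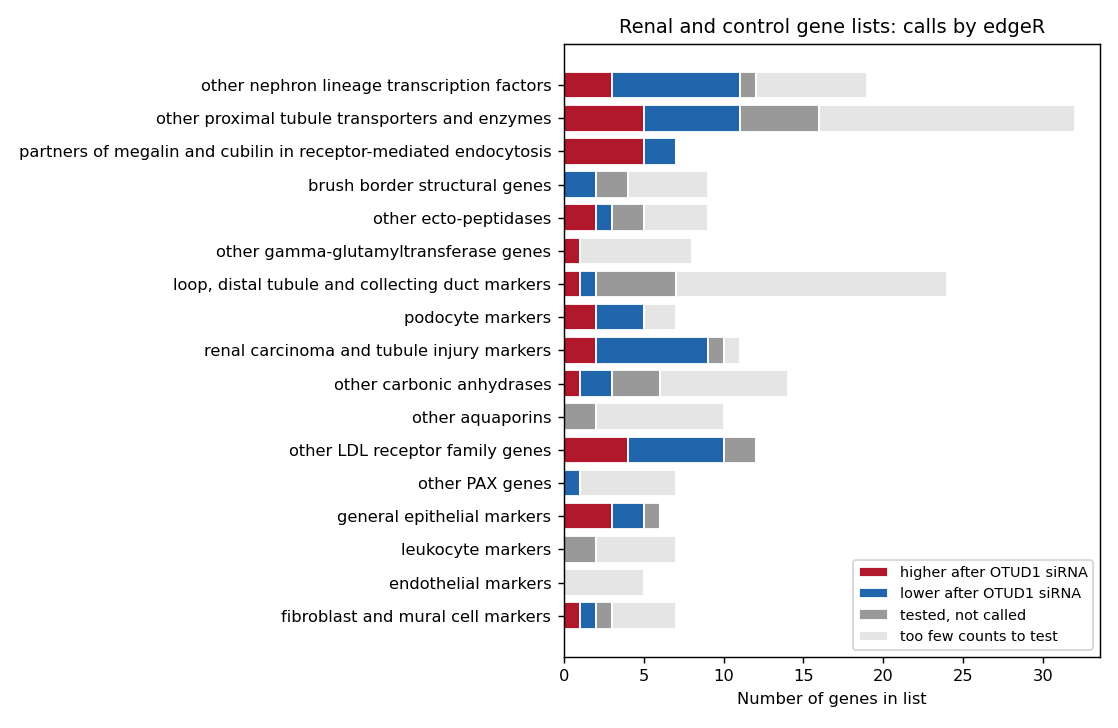
Number of genes in each renal or control list that edgeR called higher or lower after OTUD1 siRNA, tested without a call, or did not test for want of counts. The nephron lineage factors show 3 higher and 8 lower, and the list of proximal tubule genes has 16 of its 32 genes in the pale bar of genes not tested.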

How the data were processed

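RNA-seq of 6 ACHN libraries was analysed, 3 per group. The labels' protocols name Trizol for the extraction and a strand-keeping NEBNext kit for the libraries. The genome build was hg38, per the submitters' processing notes. No source used here gives the aligner, the counter, its strand setting or the annotation. The deposited table holds whole-number counts per gene symbol, although its name speaks of FPKM, and they were used as raw counts. Symbols matched GENCODE 29 for 99.95% of rows. Positions, exon lengths and 3′ UTRs come from that release, on the same build.

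The filter on low counts was filterByExpr with a minimum count of 10 and a minimum total of 15. The 15244 genes left were scaled by TMM and compared by the two-sided quasi-likelihood test of edgeR 4.0.16 (R 4.3.3). P-values were adjusted over all of them by the Benjamini-Hochberg method, and those under 0.05 were called. The biological coefficient of variation was 3.78%. The SE is the log2 fold change divided by the root of F. The median log2 fold change of all genes tested was 0.006, and 0.134 with library totals. Ratios of summed counts have 95% exact binomial intervals, and a count of 0 was read as at most 3 counts over the group. These limits describe counting error alone. No 2 replicates looked like 1 library deposited again, as chi-square per gene averaged 2.06 to 3.78 within groups and 47.5 to 56.1 across them.

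The 9 members and the 17 gene lists were chosen with earlier results of these data known. Named from each list are up to 3 called genes with the smallest adjusted p, the called genes of a member's own family, overlapping genes, and the 3 list genes nearest to PAX8 in profile. The same search for LRP2 was not possible at 0 counts. Some genes that the rule names are not reported here. Called list genes outside this rule are marked in the text where their change was picked out after their values were seen. Other genes outside the rule, named for their level or counts or for having no call, are not marked. The fit was tested on simulated data. Alternatives were other filters, scalings (DESeq-type size factors, library totals, quantile normalization), tools (DESeq2 1.42.0, limma 3.58.1), a replicate block and each replicate left out.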

Additional observations from a re-analysis of the deposited data

How the results depend on the processing

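Over 14 alternatives, PAX8, PAX2 and GGT1 kept their direction and call in all 14, and MME in the 13 that tested it. With a minimum mean of 5 CPM, MME and ANPEP were no longer tested, since their own means lay below it, and 1 member was higher in place of 2. CA12 lost its call in 4 alternatives, given with its values above, and ANPEP gained one after quantile normalization. Leaving out 1 replicate at a time, the members called numbered 2 higher and 2 to 3 lower, and over all genes 4038 to 4337 were higher and 4443 to 4624 lower. With library totals, 6189 genes were higher and 3456 lower. The neighbour SNRPD3 changed sign, to a log2 fold change of 0.07 with library totals and 0.04 after quantile normalization, without a call. For the 66 genes compared across settings, calls were lost or gained in 26 and 13 gene-by-setting pairs.

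Replicate numbers are shared by the groups, but same-numbered libraries did not deviate together (correlations over genes of -0.023, 0.018 and -0.018), so the number was not taken as a pairing. With the replicate block, 4484 genes were higher and 4791 lower, and the member counts stayed at 2 higher and 3 lower.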

Other observations

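Markers of renal carcinoma and tubule injury mostly fell. Of 11 genes on the list, 10 were tested, 2 of them higher and 7 lower, beside 29.3% and 31.1% of all genes tested. Without OTUD1 siRNA replicate 1 the number higher was 1. SPP1, the secreted phosphoprotein osteopontin, had 358, 359 and 354 CPM in the OTUD1 siRNA libraries, against 1150, 1120 and 1170 CPM in the control libraries, a fall of 3.21-fold (edgeR adjusted p = 1.66e-27). The progenitor factor SOX9 fell 2.21-fold, and LCN2, which encodes the injury marker lipocalin-2, rose 1.95-fold. VCAM1 fell 3.74-fold and the injury marker HAVCR1 1.27-fold, both named after their values were seen.

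Markers of other nephron segments were uneven. Of 24 genes of the loop, distal tubule and collecting duct, 8 had no count, UMOD and SLC12A1 among them, yet the tight-junction gene CLDN16 stood at 57.6 ± 1.74 CPM per kb after OTUD1 siRNA and 78.5 ± 1.52 CPM per kb after control siRNA (SD, n = 3 each). That was close to the level of PAX8, and CLDN16 fell 1.36-fold. Of 7 podocyte markers, 1 had no count, while NPHS1, named after its values were seen, was detected at 15.5 ± 1.63 CPM after OTUD1 siRNA and 19.3 ± 1.31 CPM after control siRNA. PLA2R1 rose 1.57-fold and PODXL fell 1.92-fold.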
